A study of Mus musculus with 9 samples.

Results

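The 40 genes described here are the chaperones of the endoplasmic reticulum (ER), the sensors, transcription factors and degradation factors of the ER stress response, the heat shock chaperones of the cytosol and the chaperonin of the mitochondrion. They were chosen by name with earlier results of these data known, and 38 of the 40 were measured among 18193 genes. Each gene was read from a probe set, a set of short probes on the array, annotated to that gene alone. Where a gene had several, the one brightest on average across the arrays was used. The other 55 probe sets of these genes are given beside it for some genes only. Those not given include some whose group difference had the opposite sign. Hsp90ab1 and Hsf1 were not analysed here, because no probe set was annotated to them alone in the table used.

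The samples were livers of KKAy mice, which become obese and serve in type 2 diabetes research, measured on Affymetrix arrays in 3 groups of 3. The BI group carried the treatment label of biomineralized insulin, the insulin group that of insulin, and the third group the treatment "none", called untreated here. All mice were labelled as 8 weeks old, and chow with 34% fat is recorded for 8 of the 9 arrays. The protocol text gives an intraperitoneal injection of 100 µL of culture medium (DMEM) with insulin at 40 µg/mL, the BI solution having the same total of which 11% was biomineralized. That text describes control mice injected with DMEM alone, and whether these are the mice labelled "none" is not stated. The growth protocol of the ninth array, BI replicate 2, describes rats. That array was kept in its labelled group, and its values are given apart where a result rests on it. No label tells whether an array is 1 mouse or a pool, so p-values concern these arrays only. The test used below also draws each gene's spread toward one shared by all probe sets. Its SEs, intervals and p-values therefore do not measure the gene's own spread alone. In tissue RNA, fewer cells of a type and less RNA per cell cannot be told apart.

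Secretory cells such as hepatocytes fold their export proteins in the ER with the help of BiP, the product of Hspa5, and of calnexin, calreticulin and protein disulfide isomerases. When unfolded protein builds up, the sensors IRE1 (Ern1), PERK (Eif2ak3) and ATF6 raise ER chaperones and degradation factors, and PERK acts through ATF4 on amino acid synthesis genes and on the factor CHOP (Ddit3). Damaged protein in the cytosol is met by a separate response, in which heat shock factor HSF1 induces Hspa1a, Hspa1b, Dnajb1 and related genes within a short time of heat or other stress.

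These arms are read by different promoter sequences, shown here for 3 of the genes. Each is the sense strand from 250 bases before to 50 bases after the transcription start. The sequences are from RefSeq, build GRCm38.p6, which held a promoter for 33 of the 40 genes. Capitals mark an ER stress element in Hspa5, 2 alternating units of a heat shock element in Hspa1b and an ATF4 element in Asns.
Hspa5 promoter, chr2:34771840-34772139, plus strand: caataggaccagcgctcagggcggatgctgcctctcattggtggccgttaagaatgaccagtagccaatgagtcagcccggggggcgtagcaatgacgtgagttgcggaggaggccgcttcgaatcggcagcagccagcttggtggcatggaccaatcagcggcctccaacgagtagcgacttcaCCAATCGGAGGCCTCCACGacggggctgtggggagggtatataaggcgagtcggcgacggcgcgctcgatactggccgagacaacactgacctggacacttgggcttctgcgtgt
Hspa1b promoter, chr17:34959189-34959488, minus strand: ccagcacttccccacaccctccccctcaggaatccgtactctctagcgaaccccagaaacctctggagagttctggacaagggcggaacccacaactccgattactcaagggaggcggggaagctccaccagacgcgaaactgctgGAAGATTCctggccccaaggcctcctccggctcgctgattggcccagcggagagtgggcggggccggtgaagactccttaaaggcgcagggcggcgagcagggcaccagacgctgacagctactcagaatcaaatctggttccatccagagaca
Asns promoter, chr6:7693160-7693459, minus strand: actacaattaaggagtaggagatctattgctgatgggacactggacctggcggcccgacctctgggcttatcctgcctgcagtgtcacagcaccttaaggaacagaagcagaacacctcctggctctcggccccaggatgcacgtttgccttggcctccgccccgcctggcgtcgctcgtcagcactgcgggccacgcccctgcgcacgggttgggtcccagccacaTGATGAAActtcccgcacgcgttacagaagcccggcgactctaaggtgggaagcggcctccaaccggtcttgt

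The ER stress element, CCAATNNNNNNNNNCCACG searched on both strands, was found for 8 of the 33 genes (24.2%), against 0.137% of the 27025 genes in the table. A gene with several starts counted once if any of its promoters held the element. All 8 were among the 24 ER genes. The 7 genes beside Hspa5 are shown with their matches in capitals and 10 bases on each side. Calr, Creld2 and the nearer match of Hsp90b1 hold the element on the opposite strand, so it reads there as its reverse complement.
Calr, chr8:84847065-84847103, minus strand: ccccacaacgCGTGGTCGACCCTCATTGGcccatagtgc
Canx, chr11:50325790-50325828, minus strand: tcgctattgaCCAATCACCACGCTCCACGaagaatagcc
Creld2, chr15:88819510-88819548, plus strand: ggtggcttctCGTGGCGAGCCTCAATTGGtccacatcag
Dnajc3, chr14:118937817-118937855, plus strand: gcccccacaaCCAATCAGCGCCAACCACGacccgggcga
Hsp90b1 nearer match, chr10:86705523-86705561, minus strand: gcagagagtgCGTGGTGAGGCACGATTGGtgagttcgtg
Hsp90b1 farther match, chr10:86705628-86705666, minus strand: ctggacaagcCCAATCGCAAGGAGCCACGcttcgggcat
Pdia6, chr12:17266481-17266519, plus strand: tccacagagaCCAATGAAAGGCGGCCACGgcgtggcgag
Syvn1, chr19:6046522-6046560, plus strand: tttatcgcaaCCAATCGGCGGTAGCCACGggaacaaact

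The XBP1/ATF6 element TGACGTGG was found for 0 of the 33 genes, against 0.714% of all genes. The ATF4 element TGATGNAA was found for 3 of 33 (9.09%), Asns, Atf3 and Herpud1, against 4.51% of all. In Asns it began 23 bases before the start and overlapped a 2-unit heat shock match. The heat shock element of 3 alternating units, GAANNTTCNNGAA or TTCNNGAANNTTC, was found for 3 of 33 (9.09%), Hspd1, Hspe1 and Hsph1, against 0.662% of all. The 2-unit form, GAANNTTC or TTCNNGAA, which the 3-unit form contains and which was added after the first search, was found for 10 of 33 (30.3%), Hspa1a and Hspa1b among them, against 17.0% of all. Hspd1 and Hspe1, which encode the mitochondrial chaperonin and its co-chaperonin, are read in opposite directions from one stretch of chromosome 1 and share the same 3-unit match, shown here on the strand of Hspd1.
Hspd1, chr1:55088049-55088081, minus strand: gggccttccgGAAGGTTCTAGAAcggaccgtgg
These matches are descriptions of letters and do not show that a factor was bound. The Hspa1a and Hspa1b promoter windows were identical at 296 of 300 bases. The genes are near-identical copies, so their probe sets may share signal.

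The deposited values are log2 signals. The arrays had median log2 signals of 6.11 to 6.30, and correlated at 0.911 to 0.920 within groups and at 0.909 to 0.921 between groups. All 38 genes had a mean at or above the median probe set mean of 6.04. The hepatocyte markers Alb, Apoa1, Ttr, Cps1 and Tat, summed on the linear scale, ranged over 163200 to 183800 in BI, 168800 to 177600 in insulin and 165500 to 193400 in untreated livers, and none was at 0 on any array. The brightest markers weigh most in such a sum. Of the 5 markers, 2 were higher and 3 lower in BI than in untreated livers, with a lowest difference of -0.51 log2 units. For 1 marker all BI arrays were below all untreated arrays, against 4.52% of all genes.

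None of the 38 genes passed the test in any comparison (limma, Benjamini-Hochberg adjustment over 45037 probe sets, threshold 0.05). The smallest adjusted p among them was 0.855 for BI against untreated and 1 for the other 2 comparisons. Over all probe sets, 0.0111% passed for BI against untreated (5 of 45037), 0% for insulin against untreated and 0% for BI against insulin. At an unadjusted p under 0.05 stood 2 of the 38 genes for BI against untreated (5.26%, against 3.90% of all genes), 0 for insulin against untreated (against 3.87%) and 1 for BI against insulin (2.63%, against 3.44%). These shares are near those of all genes. The 95% interval of a difference had a median half-width of 0.51 log2 units over the 38 genes, from 0.32 to 2.82. For 31 genes the interval of BI minus untreated lay within 1 log2 unit of 0 on both sides, and it did so for 35 genes for insulin minus untreated and for 31 for BI minus insulin. The plot of differences shows that the wide intervals are those of Hspa1a, Hspa1b and Dnajb1.

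**Figure D1:**
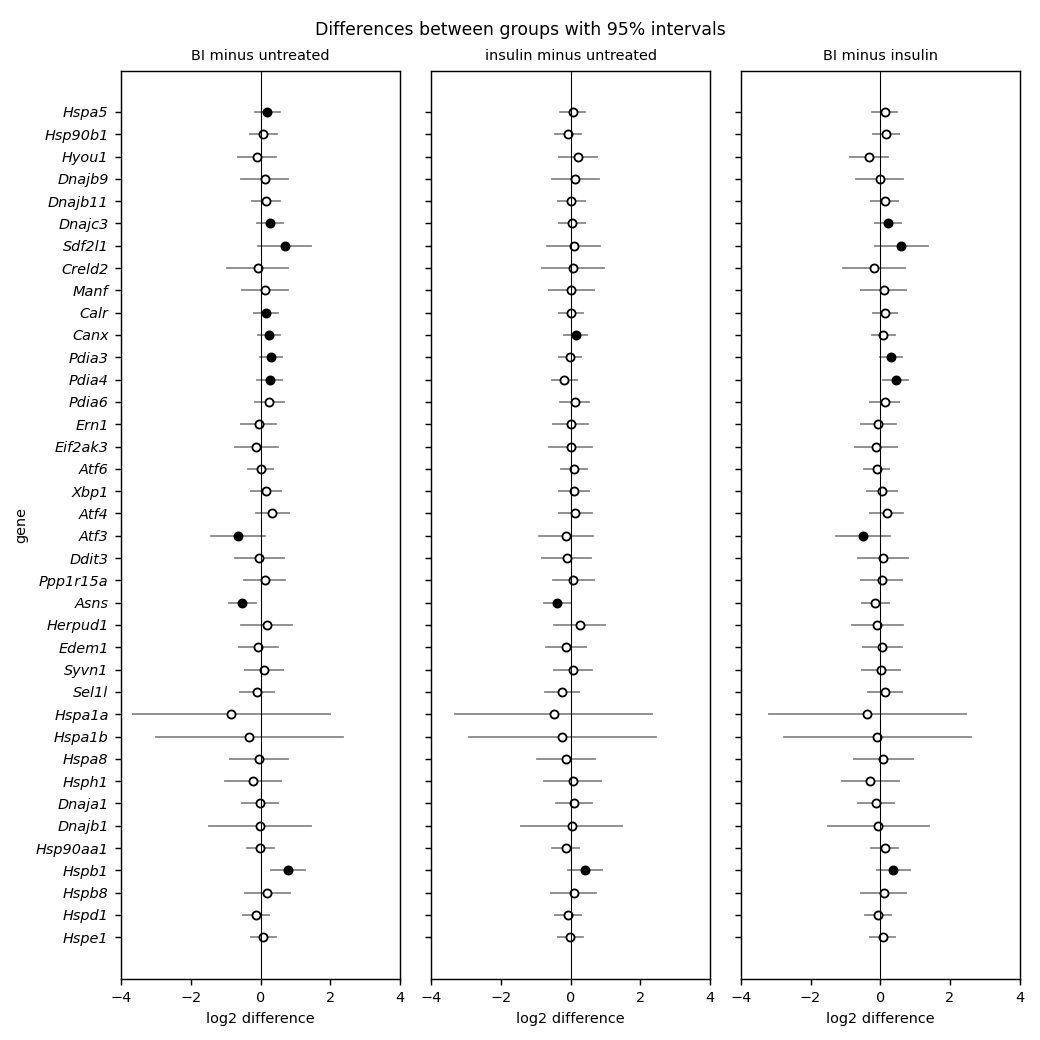
Differences between groups in log2 units (x axis) with 95% intervals from limma for each of the 38 genes (y axis). BI minus untreated, insulin minus untreated and BI minus insulin stand left to right, and filled circles mark genes whose 2 groups of arrays did not overlap, 10 of them for BI against untreated.

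The genes whose BI and untreated arrays lay apart were mostly ER chaperones and calnexin cycle genes, which were higher in BI livers. For 8 of the 38 genes (21.1%) every BI array was above every untreated array, against 4.84% of all genes. These were Hspa5, Dnajc3, Sdf2l1, Calr, Canx, Pdia3, Pdia4 and Hspb1. Among genes with a mean log2 signal of 10 or more the count was 7 of 31 (22.6%), against 4.77% of 3984 genes. For 2 genes (5.26%), Atf3 and Asns, every BI array was below every untreated array, against 4.52% of all genes. Genes of one response can vary together, so the 8 are not 8 independent observations. The 38 genes were chosen with earlier results of these data known, so these shares are descriptions and were not tested. Without BI replicate 2, 9 of 38 genes (23.7%) had BI arrays all higher, the same 8 and Pdia6, against 9.99% of all genes with 1 array fewer. Leaving out an array cannot make groups that lie apart overlap. The 8 genes were therefore bound to remain, and this count does not show that they are independent of that array.

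Over all 38 genes, BI minus untreated had a median of 0.07, and 20 were higher and 18 lower, against a median of 4e-04 and 50.1% higher over all genes. Without BI replicate 2 the median was -0.08, with 18 higher and 20 lower. Insulin minus untreated had a median of 0.03 (0.02 over all genes), with 23 genes higher and 15 lower, and the median became -0.03 when arrays were set to equal medians. BI minus insulin had a median of 0.06 (-0.03 over all genes), with 23 higher and 15 lower, and was -0.05 without BI replicate 2. Every BI array was above every insulin array for 5 genes (13.2%, against 4.20% of all genes), Dnajc3, Sdf2l1, Pdia3, Pdia4 and Hspb1, and below for 1 gene, Atf3 (2.63%, against 5.68%). Every insulin array was above every untreated array for 2 genes, Canx and Hspb1 (5.26%, against 5.74% of all genes), and below for 1, Asns (2.63%, against 3.48%). On the other probe sets of Canx, Hspb1 and Asns the insulin and untreated arrays overlapped.

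**Figure D2:**
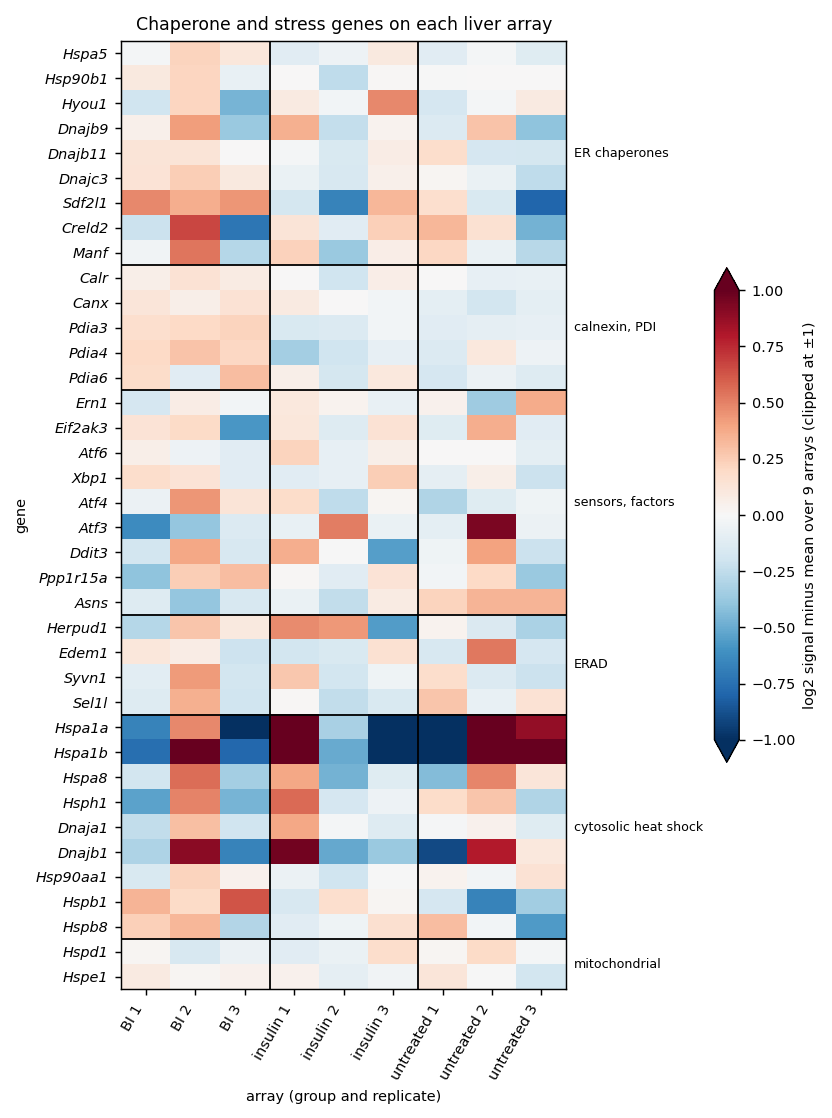
Log2 signal of each of the 38 genes (y axis, ordered by role) on each array (x axis, BI, insulin and untreated), as the difference from that gene's mean over the 9 arrays and clipped at 1 log2 unit either way. Pdia3, Canx and Calr are evenly above their means in BI, while Hspa1a, Hspa1b and Dnajb1 are high on BI replicate 2, insulin replicate 1 and untreated replicates 2 and 3.

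Of the 9 ER chaperones and co-chaperones, 7 were higher in BI than in untreated livers (median difference 0.12), 8 were higher in insulin than in untreated livers (0.06) and 6 were higher in BI than in insulin livers (0.12). Without BI replicate 2, 5 of the 9 were higher in BI than in untreated livers (median 0.01) and 5 were higher in BI than in insulin livers (0.07), Manf and Dnajb9 being lower than in untreated livers by -0.12 and -0.08. None passed the test. Hspa5 encodes BiP, the main HSP70 chaperone of the ER. Its log2 signal was 14.64, 14.88 and 14.77 in BI livers, 14.54, 14.61 and 14.75 in insulin livers, and 14.55, 14.64 and 14.54 in untreated livers. The lowest BI array was just above the highest untreated array, and the insulin arrays overlapped both. The difference was 0.19 ± 0.15 (SE) for BI minus untreated and 0.13 ± 0.15 for BI minus insulin. On the other probe sets of Hspa5 the BI and untreated arrays overlapped, with differences of 0.13 and 0.33. Insulin minus untreated was 0.06 and, without insulin replicate 3, -4.15e-05.

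Sdf2l1 encodes an ER protein that works with BiP and its J-domain partners. It had log2 signals of 11.64, 11.52 and 11.60 in BI livers, 10.99, 10.49 and 11.49 in insulin livers, and 11.32, 11.01 and 10.36 in untreated livers. The BI arrays lay close together above all 6 others, while each of the other groups spanned about 1 log2 unit. BI livers exceeded untreated livers by 0.69 ± 0.33 (SE), a ratio of 1.61, with an unadjusted p of 0.0705 and an adjusted p of 0.999 (limma). Leaving out untreated replicate 3 brought the difference to 0.42, and leaving out untreated replicate 1 brought it to 0.90. BI minus insulin was 0.60 ± 0.33.

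Dnajc3 encodes a J-domain co-chaperone of BiP that also restrains PERK. Its log2 signal was 13.46, 13.57 and 13.42 in BI livers, 13.25, 13.16 and 13.37 in insulin livers, and 13.34, 13.25 and 13.07 in untreated livers. All BI arrays lay above the other 6, with a BI minus untreated difference of 0.26 ± 0.16 (SE). Its other 4 probe sets had BI minus untreated differences of 0.13 to 0.65, and the BI and untreated arrays of 1 of the 4 did not overlap. The other 6 genes of this group overlapped between BI and untreated livers, with differences of -0.12 for Hyou1, the nucleotide exchange factor of BiP, to 0.14 for Dnajb11, a J-domain partner of BiP. Between them lay Hsp90b1, the HSP90 of the ER (0.08), Dnajb9, a J-domain partner induced by XBP1 (0.12), Manf, a secreted ER protein that binds BiP (0.12), and Creld2, an ER stress-inducible ER protein (-0.09). The second probe set of Hsp90b1 had all BI arrays above all insulin arrays, by 0.58, while BI and untreated arrays overlapped at a difference of 0.33. Creld2 was read at 10.76, 11.65 and 10.25 on the BI arrays, and its highest value of all 9 arrays was that of BI replicate 2.

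The calnexin cycle holds new glycoproteins in the ER until they fold, and disulfide isomerases form and rearrange their disulfide bonds. All 5 genes of this group were higher in BI than in untreated livers, by 0.14 to 0.29 (median 0.24), and in BI than in insulin livers, by 0.09 to 0.44 (median 0.14). Without BI replicate 2, all 5 were also higher in both comparisons (medians 0.26 and 0.25). In insulin against untreated livers 3 of 5 were higher (median 0.01). None passed the test in any of the comparisons. Pdia3 encodes the isomerase that works with calnexin and calreticulin. It had log2 signals of 13.43, 13.46 and 13.49 in BI livers, 13.11, 13.13 and 13.23 in insulin livers, and 13.15, 13.17 and 13.18 in untreated livers. The lowest BI array, at 13.43, was above the highest of the 6 others, at 13.23, and that gap was larger than the range within any group. The difference was 0.29 ± 0.14 for BI minus untreated (SE, ratio 1.22, unadjusted p 0.0705) and, for BI minus insulin, 0.30 ± 0.14 (unadjusted p 0.0616), with limma adjusted p values of 0.999 and 1. The second, dimmer probe set of Pdia3 had BI minus untreated at 0.19, with overlapping groups.

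Pdia4, another disulfide isomerase, had log2 signals of 11.75, 11.84 and 11.76 in BI livers, 11.21, 11.36 and 11.47 in insulin livers, and 11.42, 11.65 and 11.50 in untreated livers. The BI arrays were the 3 highest, and the insulin arrays overlapped the untreated arrays. BI minus insulin was 0.44 ± 0.16 (SE, ratio 1.35), with an unadjusted p of 0.0247 and an adjusted p of 1 (limma), and it ranged over 0.37 to 0.50 with 1 array left out. BI minus untreated was 0.26 ± 0.16. The second probe set of Pdia4 was dim, at a mean log2 signal of 3.44, and is not used here.

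Canx, calnexin itself, had log2 signals of 14.43, 14.37 and 14.46 in BI livers, 14.40, 14.32 and 14.28 in insulin livers, and 14.21, 14.13 and 14.22 in untreated livers. Both treated groups lay above the untreated group, with differences of 0.24 ± 0.14 (SE) for BI and 0.15 ± 0.14 for insulin, and the treated groups overlapped each other. On the other probe sets of Canx the insulin and untreated arrays overlapped, at differences of 0.15 and 0.24. BI minus untreated was 0.19 there, with all BI arrays higher, and 0.28, with overlapping groups. Calr, calreticulin, was 14.23, 14.31 and 14.25 in BI livers, 14.17, 13.97 and 14.23 in insulin livers, and 14.17, 14.09 and 14.09 in untreated livers. Its BI minus untreated difference was 0.14 ± 0.15, and the other 2 probe sets of Calr also had BI arrays all above the untreated arrays, by 0.19 and 0.22. Pdia6, an isomerase that binds BiP, overlapped between BI and untreated livers at a difference of 0.24, because BI replicate 2 was read at 12.45 while untreated replicate 2 was read at 12.50.

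**Figure D3:**
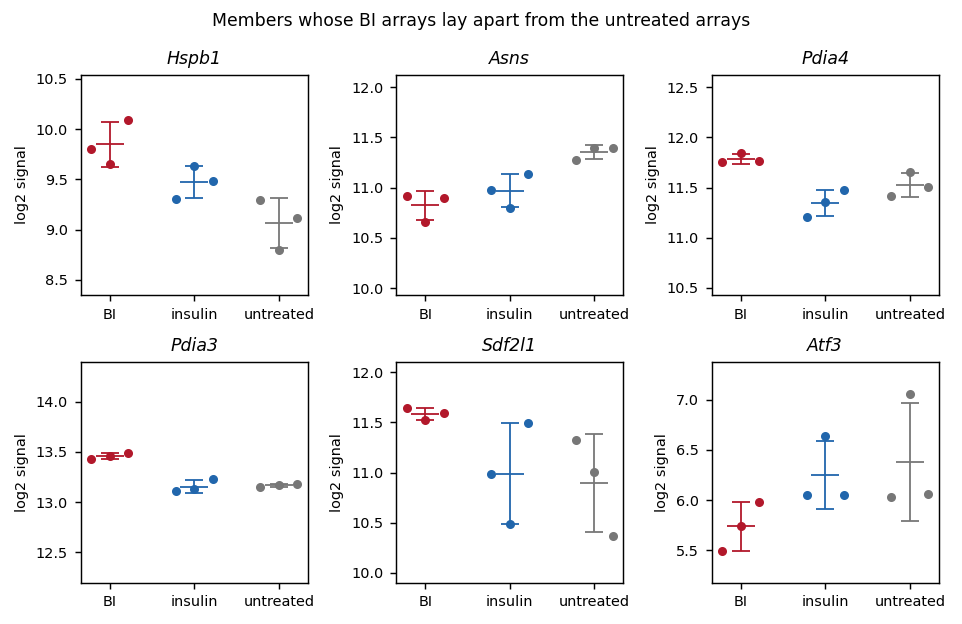
Log2 signal (y axis) of Hspb1, Asns, Pdia4, Pdia3, Sdf2l1 and Atf3 on each array (points) of the BI, insulin and untreated groups (x axis), with the group mean and SD (n = 3), on axes of equal span. The BI arrays lie above the untreated arrays for Hspb1, Pdia4, Pdia3 and Sdf2l1 and below them for Asns and Atf3.

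Markers of other cells with a large ER were read beside these values. The summed linear signal of 5 pancreatic acinar markers was 1629 to 2072 in BI, 1898 to 2106 in insulin and 1320 to 3989 in untreated livers. That of 5 plasma and B cell markers was 11140 to 12660 in BI, 12590 to 13610 in insulin and 10170 to 18310 in untreated livers. Most of the latter sum came from 1 marker, Sdc1, at a mean log2 signal of 13.53, so it cannot show the content of these cells. The BI ranges of both sums lay within those of the untreated livers. None of these markers was at 0 on any array, but 4 of the 5 acinar markers had means below the lowest array median. In BI against untreated livers 3 acinar markers were higher and 2 lower, with a lowest difference of -1.64. For 1 of them all BI arrays were below all untreated arrays, against 4.52% of all genes. All 5 plasma and B cell markers were lower in BI than in untreated livers, and no marker of either list passed the test.

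The ER stress element genes can be read as a group. Of the 8, 7 were higher in BI than in untreated livers (median 0.17, from -0.09 to 0.26), and for 4 of them the BI arrays were all above the untreated arrays, against 4.84% of all genes. Without BI replicate 2, 6 of 8 were higher (median 0.13), Syvn1 being lower by -0.08. In insulin against untreated livers 7 of 8 were higher (median 0.07), with 1 gene set apart, against 5.74% of all genes. In BI against insulin livers 7 of 8 were higher (median 0.13), with 1 gene set apart, against 4.20% of all genes. ER genes whose promoters held no such match were set apart too. Pdia3, Pdia4 and Sdf2l1 had all BI arrays above all untreated arrays, by 0.29, 0.26 and 0.69. Lying apart was therefore not confined to genes with the element, and a link to the element was not tested. The comparisons share arrays, and none of the 8 genes passed the test.

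The sensors, transcription factors and targets of ER stress were divided between sides. Of the 9 genes, 3 were higher and 6 lower in BI than in untreated livers (median -0.04), 5 were higher in insulin than in untreated livers (5e-04), and 4 were higher in BI than in insulin livers (-0.06). With BI replicate 2 left out, 4 of 9 were higher in BI than in untreated livers (-0.12) and 2 of 9 in BI than in insulin livers (-0.09). The sensors Ern1, Eif2ak3 and Atf6 had BI minus untreated differences of -0.06, -0.13 and -0.0043, all with overlapping groups. Xbp1 encodes the transcription factor activated by IRE1 through splicing of its mRNA, which this probe set level does not separate. It had log2 signals of 14.65, 14.61 and 14.36 in BI livers, 14.36, 14.39 and 14.72 in insulin livers, and 14.38, 14.53 and 14.26 in untreated livers. The 3 groups overlapped, with BI minus untreated at 0.15 ± 0.18 (SE). BI minus insulin was 0.05, and it was -0.05 as the mean of the gene's probe sets, -0.01 without insulin replicate 1 and -0.00396 without BI replicate 1. Insulin minus untreated was 0.10, and -0.02 without insulin replicate 3.

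Ddit3 encodes CHOP, a factor that accompanies prolonged ER stress. Its log2 signals were 8.20, 8.77 and 8.23 in BI livers, 8.75, 8.39 and 7.84 in insulin livers, and 8.35, 8.79 and 8.17 in untreated livers. The highest arrays of the 3 groups were nearly level, and the groups overlapped. BI minus untreated was -0.04 ± 0.30 (SE), but 0.20 as the mean of the gene's probe sets. With 1 array left out it ranged over -0.22 to 0.14, BI minus insulin over -0.17 to 0.29 and insulin minus untreated over -0.32 to 0.13, so no side was settled. Ppp1r15a, which restores translation after PERK signalling, and Atf4, the factor made under PERK signalling, overlapped between all groups, with BI minus untreated at 0.12 and 0.33.

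Asns encodes asparagine synthetase, a target of ATF4 whose promoter element is shown above. It had log2 signals of 10.92, 10.66 and 10.89 in BI livers, 10.98, 10.80 and 11.13 in insulin livers, and 11.27, 11.39 and 11.39 in untreated livers. The untreated arrays were the 3 highest, and the BI and insulin arrays overlapped. BI minus untreated was -0.53 ± 0.17 (SE, ratio 0.693), with an unadjusted p of 0.0142 and an adjusted p of 0.999 (limma). It ranged over -0.58 to -0.45 with 1 array left out. Insulin minus untreated was -0.38 ± 0.17 (unadjusted p 0.0528, adjusted p 1). The second probe set of Asns also had all BI arrays below all untreated arrays, by -0.76, and an insulin minus untreated difference of -0.51 with overlapping groups.

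Atf3, a factor induced by many stresses and another gene with the ATF4 element, was near the median level of the array. Its log2 signals were 5.49, 5.74 and 5.98 in BI livers, 6.05, 6.64 and 6.05 in insulin livers, and 6.03, 7.06 and 6.06 in untreated livers. The BI arrays were the 3 lowest, by a narrow margin. BI minus untreated was -0.64 ± 0.33 (SE, unadjusted p 0.0913), with untreated replicate 2 well above the other 8 arrays.

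Among other targets of the integrated stress response, the wider pathway through ATF4, 0 of 20 passed the test, 8 were higher and 12 lower in BI than in untreated livers (median -0.08), and 8 were higher and 12 lower in insulin than in untreated livers (median -0.11). Ddit4, an inhibitor of mTORC1 signalling, had log2 signals of 8.75, 8.26 and 8.23 in BI livers, 8.41, 9.03 and 8.94 in insulin livers, and 8.20, 10.21 and 10.13 in untreated livers, with overlapping groups. Aldh18a1, an enzyme of proline synthesis, had a BI minus untreated difference of -0.76 with overlapping groups.

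The degradation genes showed no common side. Of 4, 2 were higher in BI than in untreated livers (median 0.02), 2 were higher in insulin than in untreated livers (-0.03) and 3 were higher in BI than in insulin livers (0.04). With BI replicate 2 left out, 1 of 4 was higher in BI than in untreated livers (-0.10) and 1 of 4 in BI than in insulin livers (-0.10). Sel1l encodes the adaptor of the ubiquitin ligase HRD1. Its log2 signals were 11.83, 12.32 and 11.76 in BI livers, 11.98, 11.72 and 11.81 in insulin livers, and 12.24, 11.89 and 12.11 in untreated livers. The groups overlapped, and insulin minus untreated was -0.24 ± 0.21 (SE, unadjusted p 0.277). Its other 4 probe sets had insulin minus untreated differences of -0.32 to -0.14. Herpud1, an ER membrane protein of the same ligase complex, was spread over 12.19 to 13.23 in insulin livers, a range that held all BI and untreated arrays. Syvn1, which encodes HRD1 itself, and Edem1, which hands glycoproteins to degradation, had BI minus untreated differences of 0.11 and -0.08. The second probe set of Edem1 had the opposite sign, at 0.14 with overlapping groups.

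Other genes of ER folding and degradation were read from lists of 18 and 14 genes, of which 18 and 12 were measured. None passed the test. Of the folding and translocation genes, 11 of 18 were higher in BI than in untreated livers (median 0.07), 14 of 18 in insulin than in untreated livers (0.06) and 6 of 18 in BI than in insulin livers (-0.04). Serp1, which encodes a small protein bound to the translocon, had all BI arrays above all untreated arrays by 0.26, and all insulin arrays above them by 0.27. Fkbp11, a prolyl isomerase of secretory cells, had a BI minus untreated difference of -0.03 and an insulin minus untreated difference of 0.48, with overlapping groups in both. Its BI arrays were all below its insulin arrays, at a difference of -0.51. In BI against insulin livers 3 of the 18 folding genes had all BI arrays lower and 0 had all higher, against 5.68% and 4.20% of all genes. Of the degradation genes, 7 of 12 were higher in BI than in untreated livers (median 0.0036) and 9 of 12 in insulin than in untreated livers (0.07). Derl3, a channel subunit of degradation known from secretory cells, had log2 signals of 9.02, 8.83 and 9.76 in BI livers, 9.88, 9.26 and 9.38 in insulin livers, and 9.37, 7.72 and 6.88 in untreated livers. Its insulin minus untreated difference was 1.52 and its BI minus untreated difference 1.22, and untreated replicate 1 overlapped both treated groups. That replicate also held the highest pancreatic acinar sum, and the part of those cells in the Derl3 values was not tested. Selenos, a selenoprotein of the degradation complex, had BI arrays all above untreated arrays, by 0.30, and insulin arrays all above them, by 0.37.

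The HSP70 genes of the cytosol differed more between arrays of a group than between groups. Of the 9 cytosolic heat shock genes, 2 were higher in BI than in untreated livers (median -0.02), 5 in insulin than in untreated livers (0.03) and 4 in BI than in insulin livers (-0.05), and none passed the test. Leaving out BI replicate 2, 2 of 9 were higher in BI than in untreated livers (median -0.32) and 2 of 9 in BI than in insulin livers (-0.30). Hspa1b encodes the stress-inducible HSP70. Its log2 signals were 11.45, 13.31 and 11.42 in BI livers, 13.89, 11.70 and 10.86 in insulin livers, and 10.20, 13.74 and 13.24 in untreated livers. BI replicate 2, insulin replicate 1 and untreated replicates 2 and 3 formed a high set, with a gap down to the next array at 11.70, and each group held members of both sets. From the lowest to the highest array the ratio was 13.0. The BI minus untreated difference was -0.33 ± 1.15 (SE), with a 95% interval of -3.01 to 2.35. It was -1.43 without untreated replicate 1, 0.34 without untreated replicate 2 and 0.09 without untreated replicate 3. Insulin minus untreated was -0.24, ranging over -1.34 to 0.43 with 1 array left out, and BI minus insulin was -0.09, ranging over -0.74 to 0.78. The direction of each therefore depended on which array was left out.

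The same 4 arrays were the 4 highest for Hspa1b, Hspa1a, Dnajb1 and Hspa8, which is 4 of the 38 genes. The 4 arrays were taken from Hspa1b, which matches by definition, and Hspa1a may share its signal. Over all genes 0.995% (181 of 18193) had these 4 arrays as their 4 highest, Hspa1b included. Hspa1a, Dnajb1 and Hspa8 were singled out after their values were seen. Hspa1a, the near-identical copy of Hspa1b, had log2 signals of 7.13, 8.28 and 6.77 in BI livers, 9.70, 7.48 and 6.13 in insulin livers, and 6.01, 10.05 and 8.68 in untreated livers, a ratio of 16.6 between the extremes. Dnajb1, the J-domain partner of the inducible HSP70, had log2 signals of 9.60, 10.81 and 9.24 in BI livers, 10.87, 9.40 and 9.54 in insulin livers, and 9.004, 10.70 and 10.02 in untreated livers. Hspa8, the HSP70 made without stress, had a narrower range, with log2 signals of 14.06, 14.80 and 13.90 in BI livers, 14.63, 13.77 and 14.12 in insulin livers, and 13.81, 14.73 and 14.37 in untreated livers. The 3 probe sets of Hspa1b all had this order, as did 2 of the other 3 probe sets of Hspa8, while the second probe set of Dnajb1 did not.

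**Figure D4:**
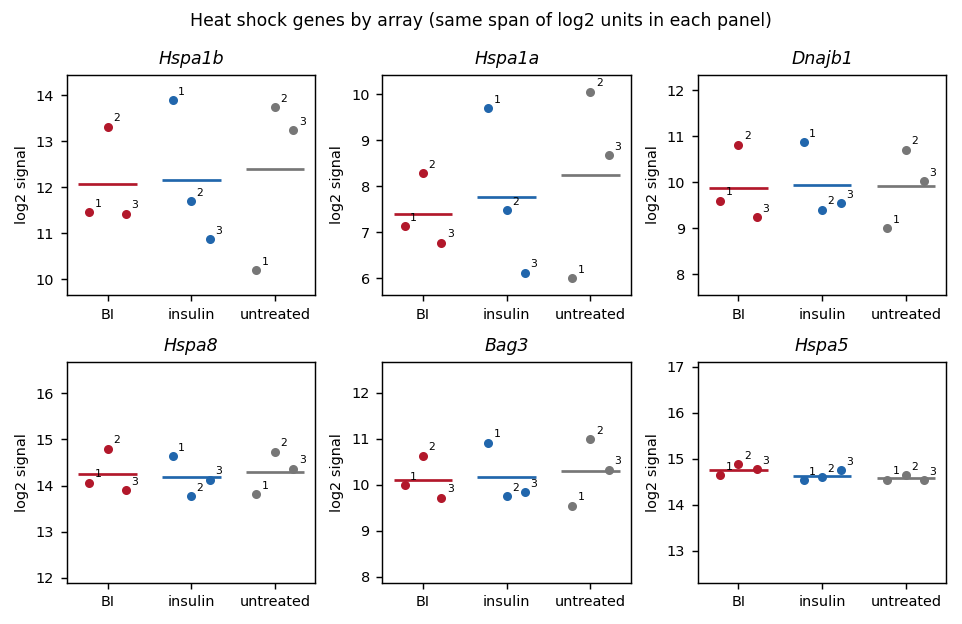
Log2 signal (y axis) of 6 genes on each array (points, numbered by replicate) of the BI, insulin and untreated groups (x axis), with lines at group means and the same span of log2 units in each panel. BI replicate 2, insulin replicate 1 and untreated replicates 2 and 3 are the highest arrays for Hspa1b, Hspa1a, Dnajb1, Hspa8 and Bag3, and Hspa5 differs little between arrays.

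Among 21 measured cytosolic chaperones and co-chaperones outside the 38 genes, Bag3 and Dnajb4 had the same 4 highest arrays. Bag3, an HSF1 target that couples HSP70 to small heat shock proteins, had log2 signals of 9.997, 10.63 and 9.72 in BI livers, 10.91, 9.75 and 9.84 in insulin livers, and 9.55, 10.99 and 10.33 in untreated livers. Of the 21 genes, 6 were higher and 15 lower in BI than in untreated livers (median -0.07), and none passed the test. Stub1, a ubiquitin ligase that binds HSP70, and Dnaja2, a J-domain protein, had BI minus untreated differences of -0.14 and -0.16. The cold-induced RNA-binding gene Cirbp, whose level is known to move opposite to temperature, had log2 signals of 8.27, 7.62 and 8.76 in BI livers, 8.28, 8.50 and 7.99 in insulin livers, and 7.59, 7.30 and 8.87 in untreated livers. Its highest array was untreated replicate 3, a high array of Hspa1b, and its lowest was untreated replicate 2, another high one. The 3' minus 5' log2 signal of the Gapdh control probe sets, a measure of RNA quality, was 0.39, 0.26 and 0.42 in BI, 0.55, 0.54 and 0.48 in insulin, and 0.28, 0.31 and 0.65 in untreated livers. The 4 arrays high in Hspa1b held both the lowest of these values, BI replicate 2, and the highest, untreated replicate 3. The part of temperature or RNA quality in the Hspa1b values was not tested. The stellate cell marker Dcn, 1 of 5 such markers, also had these 4 arrays as its highest, and the other 4 did not. The summed stellate markers were 7506 to 10060 in BI, 7162 to 9179 in insulin and 5388 to 9141 in untreated livers, with the highest sum on BI replicate 2, and their part in the result was not tested.

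The spread within groups was widest in part of the cytosolic genes, and the arms overlapped. It was 0.10 to 0.49 for the ER chaperones and 0.13 to 1.64 for the cytosolic heat shock genes. The within-group SD was 1.64 for Hspa1a, 1.56 for Hspa1b and 0.83 for Dnajb1, against a median of 0.23 over the 38 genes and 0.38 over all genes. Dim probe sets have a wide spread, so the bright genes were set against 3984 genes with a mean log2 signal of 10 or more, whose median SD was 0.16. Of these, 1 gene, Mt1, had a larger SD than Hspa1b. Mt1, which encodes a metallothionein, was read at 14.30, 13.55 and 11.34 in BI livers, 11.97, 14.26 and 14.89 in insulin livers, and 13.82, 15.29 and 11.06 in untreated livers, an order different from that of Hspa1b. Creld2, an ER gene, had an SD of 0.49, and 148 of these genes had a larger one. At the other end, Pdia3 had an SD of 0.04 and 3960 of the 3984 genes had a larger one. Canx and Calr, at 0.05 and 0.09, were exceeded by 3931 and 3541 genes, and Hspa5, at 0.10, by 3359. The groups of Pdia3 therefore lay apart at a difference of 0.29, while a difference of -0.85 in Hspa1a, BI minus untreated, was smaller than its SE of 1.21. The SE of Pdia3 was 0.14 beside its SD of 0.04, because limma draws each gene's spread toward one shared by all probe sets.

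**Figure D5:**
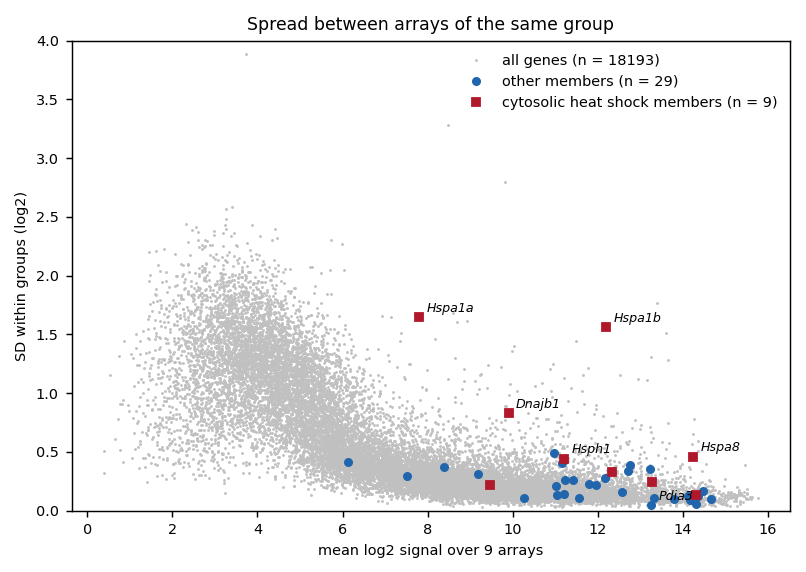
Within-group SD (y axis, log2) against mean log2 signal over the 9 arrays (x axis) for 18193 genes, with the 9 cytosolic heat shock genes as squares and the other 29 measured genes as circles. Hspa1a, Hspa1b and Dnajb1 lie far above the bulk of genes at their signal, and Pdia3 lies at its lower edge.

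Hspb1, a small heat shock protein that holds unfolding protein, did not follow the HSP70 genes. Its log2 signals were 9.80, 9.65 and 10.09 in BI livers, 9.31, 9.63 and 9.48 in insulin livers, and 9.29, 8.79 and 9.11 in untreated livers. The BI arrays were above all insulin arrays, and the insulin arrays above all untreated arrays, each by a narrow margin. BI minus untreated was 0.78 ± 0.21 (SE, ratio 1.72), with an unadjusted p of 0.00609 and an adjusted p of 0.855 (limma), and it ranged over 0.65 to 0.90 with 1 array left out. Insulin minus untreated was 0.41 ± 0.21 (unadjusted p 0.0881) and BI minus insulin 0.38 ± 0.21 (unadjusted p 0.109), each with an adjusted p of 1. Its second probe set also had all BI arrays above all untreated arrays, with a difference of 0.47 (unadjusted p 0.0308). Insulin minus untreated was 0.18 on that probe set, with overlapping groups. Hspb8, its partner in the Bag3 complex, had a BI minus untreated difference of 0.19 with overlapping groups. The other probe sets of Hspb8 had 0.13 and -0.73, also with overlapping groups. Hsph1, a nucleotide exchange factor of HSP70, Dnaja1, a J-domain protein, and Hsp90aa1, the inducible HSP90, had differences of -0.22, -0.02 and -0.01, with overlapping groups.

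The mitochondrial chaperonin differed little between arrays or groups. Hspd1 had log2 signals of 14.13, 13.95 and 14.05 in BI livers, 14.00, 14.05 and 14.29 in insulin livers, and 14.13, 14.30 and 14.10 in untreated livers. The groups overlapped, with BI minus untreated at -0.13 ± 0.16 (SE). BI minus insulin was -0.07, and 0.02 without insulin replicate 3. Hspe1, its co-chaperonin, had a BI minus untreated difference of 0.07 ± 0.15. The highest and lowest arrays of the genes did not coincide, Hspd1 being highest on untreated replicate 2 and Hspe1 on untreated replicate 1. Of 8 other mitochondrial chaperones and proteases 4 were higher in BI than in untreated livers (median 0.01), and of 8 subunits of the cytosolic chaperonin CCT 4 were higher (median -0.02), with none past the test. Clpx, of the mitochondrial protease ClpXP, had a BI minus untreated difference of 0.28, and Lonp1, another mitochondrial protease, had 0.03. Cct7 and Cct6a, subunits of CCT, had 0.15 and 0.08.

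A single array, BI replicate 2, carried many of the highest values. It was the highest of the 9 arrays for 14 of the 38 genes (36.8%), against 9.98% of all genes. These were 6 of 9 ER chaperones, 2 of 5 calnexin cycle genes, 1 sensor or factor, 2 of 4 degradation genes and 3 of 9 cytosolic heat shock genes. This is the array whose growth protocol describes rats. Without it, genes with BI arrays all above the untreated arrays made up 23.7% of the 38 and 9.99% of all genes. Such shares can only grow when an array is left out. The median difference over the 38 genes changed its side without that array, as given above.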

How the data were processed

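Liver RNA of 9 KKAy mouse samples was measured on 1-colour Affymetrix arrays. The authors deposited 1 log2 signal for each probe set and array; their software is not given in the sources. Back on the linear scale, each array had a 2% trimmed mean of 500.004, so the values were used as deposited. No detection call was used, and the number of arrays limits the precision. Of 45101 probe sets, 64 controls were left out; 34945 had 1 gene symbol, 932 several and 9160 were unnamed here, and 34741 were matched by gene ID to current names.

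One fit over all 9 arrays was made with limma 3.58.1 (R 4.3.3; lmFit and eBayes, group as the only factor, 6 residual degrees of freedom, two-sided), with Benjamini-Hochberg adjustment over 45037 probe sets and a threshold of 0.05. The fit was tested on simulated data. Groups came from the labels. The genes and lists were chosen with earlier results of these data known. Values are given array by array for the genes of smallest p in each comparison, up to 4, and for Hspa5, Xbp1, Ddit3, Hspa1b and Hspd1, and values are given for the 2 genes of smallest F-test p in each role group or list. Calr, Canx, Mt1, Dcn, Bag3, Dnajb4 and the HSP70 partners were singled out after their values were seen. Alternatives were equal array medians, quantile normalization, leaving out dim probe sets, a variance trend with robust fitting, fits of 2 groups, array weights, averaging a gene's probe sets, a replicate block and leaving out each array.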

Additional observations from a re-analysis of the deposited data

How the results depend on the processing

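The count of the 38 genes past the threshold was 0 in all 3 comparisons under each of the 17 other settings. The count over all probe sets for BI against untreated, 5 as reported, was 1 with dim probe sets filtered out, 0 with only the groups compared, and 0 to 2 with 1 array left out; for BI against insulin, 0 as reported, it was 1 with the filter and 0 to 1 with 1 array left out. With the replicate number as a replicate block, BI against untreated had 0 calls and the medians over the 38 genes were the same; deviations of same-numbered arrays correlated at only -0.034 to 0.036, so the numbers were not taken as pairs, and the block changed no call among the 38 genes. The median of BI minus untreated over the 38 genes ranged over -0.0794 to 0.145 with 1 array left out, the lowest without BI replicate 2. The counts of genes whose groups did not overlap can only grow when an array is left out, and ranged over 8 to 11 (BI above untreated, reported 8), 5 to 9 (BI above insulin, reported 5) and 2 to 6 (insulin above untreated, reported 2); these, and the counts of higher genes without BI replicate 2, were added after seeing the data. Averaged over the probe sets of the gene, BI minus untreated of Ddit3 was 0.20 and BI minus insulin of Xbp1 was -0.0522. With 1 array left out, the sign turned for Ddit3 (BI minus untreated -0.22 to 0.14, BI minus insulin -0.17 to 0.29, insulin minus untreated -0.32 to 0.13), Hspa1b (-1.43 to 0.34, -0.74 to 0.78 and -1.34 to 0.43 in that order), Xbp1 (BI minus insulin -0.0132 to 0.167, insulin minus untreated -0.0168 to 0.167), Hspa5 (insulin minus untreated -4.15e-05 to 0.11) and Hspd1 (BI minus insulin -0.13 to 0.02). The cause of these shifts was not tested. With 3 arrays a group, differences under the median half-width of 0.51 could not be told from 0 for a typical gene of the 38.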
